A study of Mus musculus with 2 samples.

Results

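The miRNAs described here are the 3p products of the miR-23/24/27 clusters: miR-23a-3p (MIMAT0000532), miR-23b-3p (MIMAT0000125), miR-24-3p (MIMAT0000219), miR-27a-3p (MIMAT0000537) and miR-27b-3p (MIMAT0000126). They were chosen by their accessions in the deposited table and not by a rule on their values. Earlier results of these data were known when the choice was made. They make up 5 of the 610 features of the table. The table was made from liver RNA of 45-day-old male mice of a mixed 129SV + C57BL/6 background, with 1 array for floxed controls that keep the receptor gene (Hnf4af/f) and 1 for mice that lack it in the liver (Hnf4aΔH). The labels do not state what drives the deletion or how many animals stand behind each array. The comparison asks whether loss of Hnf4a, a nuclear receptor that drives much of hepatocyte gene expression, went with a different level of these miRNAs. With 1 array a group there is no replicate error, so each value is a single measurement, no test was made and the precision is limited by the number of arrays.

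A miRNA is cut from a hairpin in a longer primary transcript and guides the silencing complex to messenger RNAs that pair with its seed, the bases near its 5′ end. The miR-23a and miR-23b clusters are paralogs, and each makes one miR-23, one miR-27 and one miR-24 from a shared primary transcript. The family is widely expressed. It is known for roles in blood vessels and blood cells, and in the liver miR-27 is known for repressing genes of lipid metabolism. In human hepatoma cells miR-24 is known to lower HNF4A itself.

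In RefSeq's annotation of the GRCm38.p6 mouse assembly, the miR-23a cluster lies on the plus strand of chromosome 8. Mir23a occupies bases 84208518 to 84208592, Mir27a 84208672 to 84208758 and Mir24-2 84208815 to 84208921. The cluster spans 404 bases, and no annotated gene other than miRNA genes contains it. The miR-23b cluster lies on the plus strand of chromosome 13, with Mir23b at 63300484 to 63300557, Mir27b at 63300712 to 63300784 and Mir24-1 at 63301208 to 63301275. It spans 792 bases and lies inside the protein-coding gene Aopep (62964893 to 63326096), which encodes an aminopeptidase. The gene table used here does not say whether the hairpins sit in an intron or an exon of Aopep. Both clusters hold the hairpins in the order 23, 27, 24, and the gap before the miR-24 hairpin is 56 bases in the first and 423 in the second.

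**Figure D1:**
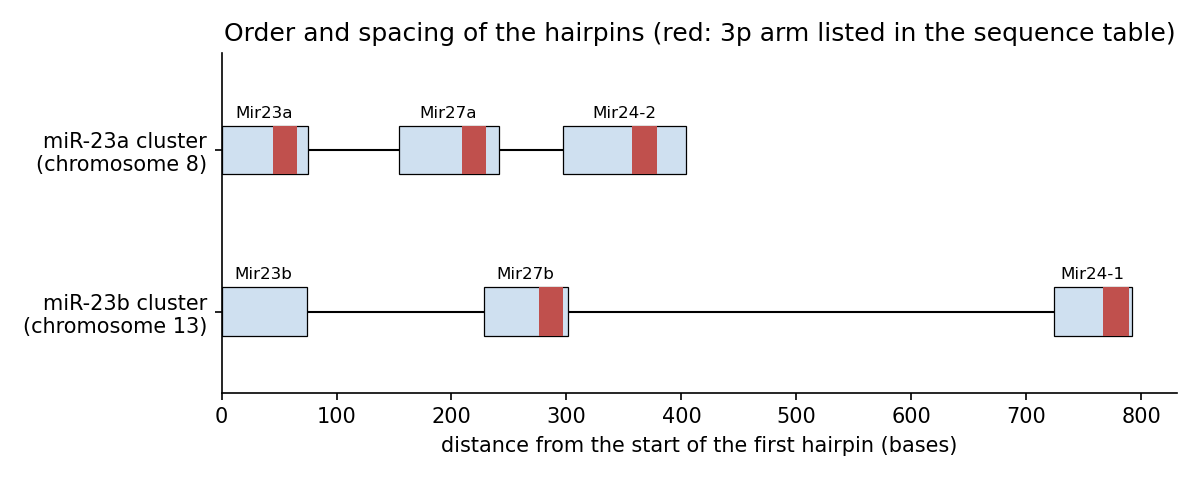
Order and spacing of the hairpins of both clusters, with the distance from the start of the first hairpin in bases on the horizontal axis. Pale boxes are hairpins and red boxes the 3p arms listed in the sequence table. The miR-23a cluster is the more compact, spanning 404 against 792 bases.

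Mature sequences were matched by name in RefSeq for 4 of the 5 miRNAs (miR-23a-3p, miR-24-3p, miR-27a-3p and miR-27b-3p). They are shown because the seeds group the products across the clusters, and the differences below are set out by seed as well as by cluster. Capitals mark the seed, bases 2 to 8 from the 5′ end.
miR-23a-3p: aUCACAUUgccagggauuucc
miR-24-3p: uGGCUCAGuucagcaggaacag
miR-27a-3p: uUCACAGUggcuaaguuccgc
miR-27b-3p: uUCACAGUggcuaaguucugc
The miR-27 pair share the seed UCACAGU, and no other mature miRNA among the RefSeq sequences used here has it at the same bases. They are identical at 20 of 21 bases and differ by C19U, counted from the 5′ end of miR-27a-3p, far from the seed. The seed of miR-23a-3p is close to that of miR-27a-3p and differs from it by U7G alone, although the whole molecules are identical at only 11 of 21 bases. The seed of miR-24-3p is unlike either. Among the same RefSeq sequences, miR-5124b, miR-6369, miR-6410 and miR-6413 share it. How far the probes of close paralogs such as the miR-27 pair tell them apart was not tested.

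Both clusters make the same miR-24-3p. Its hairpins are shown because they make plain why the array's miR-24-3p feature cannot be assigned to a cluster. Capitals mark the mature miR-24-3p arm, 22 bases long in each.
Mir24-1: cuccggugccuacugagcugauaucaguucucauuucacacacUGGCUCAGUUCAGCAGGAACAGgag
Mir24-2: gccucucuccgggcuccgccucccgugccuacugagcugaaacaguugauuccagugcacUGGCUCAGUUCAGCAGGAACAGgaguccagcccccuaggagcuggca
The arm lies at bases 44 to 65 of the Mir24-1 hairpin and at bases 61 to 82 of the Mir24-2 hairpin. The intensity of miR-24-3p can therefore come from either locus or from both, in shares that were not measured. Opposite arms of these hairpins, which would separate the loci, were not analysed here because the table does not pair its other accessions with names.

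All 5 miRNAs had a value on both arrays and all 5 were in the brightest quartile of the 258 features that had one. None differed by 2-fold between the livers. As deposited, every one was somewhat brighter on the liver-null array, the miR-27 pair most, the miR-23 pair less and miR-24-3p least. No general shift between the arrays was clear. Over the shared features the liver-null array's median log2 level was the higher by 0.15, but the median feature's own difference was -0.06, with 142 features lower and 116 higher. Centring each array on its median takes 0.15 from every difference and moves the median feature to -0.21. With that centring 4 of the miRNAs kept their direction and miR-24-3p became slightly lower. With loess, 75th percentile or quantile scaling all 5 stayed above 0. Values below are deposited array intensities on a linear scale, and differences are log2(intensity + 1) of the liver-null minus the control array.

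miR-27b-3p, of the miR-23b cluster, gave 73.5 in the control and 127 in the Hnf4aΔH sample. The second value was 1.73 times the first. The log2 difference was 0.78 as deposited and 0.63 with median centring. Among the features with a value on each array it ranked 45 of 299 in the control and 30 of 340 in the liver-null sample, counted from the brightest. This was the highest difference of the 5 miRNAs.

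miR-27a-3p, its paralog in the miR-23a cluster, gave 68.4 in the control and 108 in the Hnf4aΔH sample, 1.58 times as much. The log2 difference was 0.65 as deposited and 0.50 with median centring. Its rank went from 47 to 35. The miR-27 paralogs thus had the highest differences of the group, and the gap between their log2 differences, 27a minus 27b, was -0.13.

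miR-23b-3p gave 277 in the control and 346 in the Hnf4aΔH sample, 1.25 times as much. Its log2 difference was 0.32, and 0.17 with median centring, and its rank went from 23 to 16. Its paralog in the miR-23a cluster, miR-23a-3p, had a smaller difference. It gave 280 in the control and 321 in the Hnf4aΔH sample, 1.15 times as much. The log2 difference was 0.20, and 0.04 with median centring, and the rank went from 22 to 18. The gap between their differences, 23a minus 23b, was -0.12.

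miR-24-3p, made by both clusters, gave 233 in the control and 247 in the Hnf4aΔH sample, 1.06 times as much. The log2 difference was 0.08 as deposited. Median centring gave -0.07, loess centring 0.02 and quantile normalization 0.31, so its direction and size depended on the scaling. With quantile normalization it also stood above miR-23a-3p, at 0.23, and was no longer the lowest of the group. It ranked 26 of 299 and 24 of 340. As deposited, its signal was nearly the same on both arrays.

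In these whole-liver samples, a different number of cells of a type and a different amount of the miRNA in each cell cannot be told apart. Markers of hepatocytes, endothelial cells, leukocytes, stellate cells and erythroid cells were not looked up, because the deposited table does not name its other accessions. Their part in the differences was not tested, and neither the labelled tissue nor the loss of Hnf4a was checked here against other features.

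**Figure D2:**
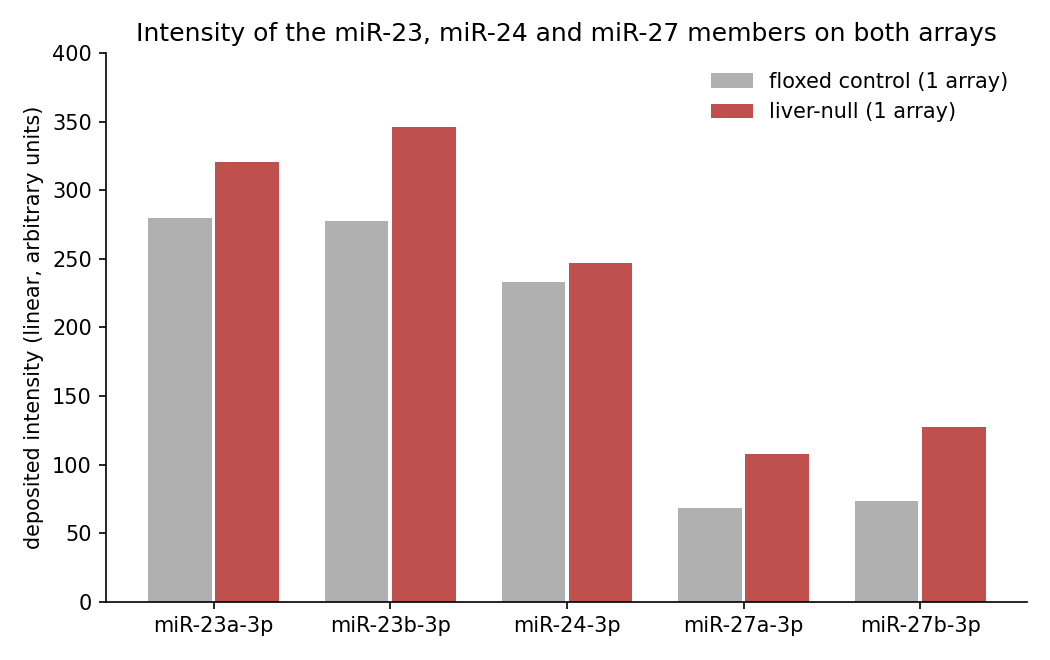
Deposited intensity (linear scale, arbitrary units) of each of the 5 miRNAs on the floxed control array (grey) and the liver-null array (red), with 1 array a group and no error bars. The red bar is the taller for all 5, by a ratio of 1.06 for miR-24-3p up to 1.73 for miR-27b-3p; brightness depends on the probe, so heights of different miRNAs do not rank their amounts.

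On the control array the signals ran, from the brightest, miR-23a-3p, miR-23b-3p, miR-24-3p, miR-27b-3p and miR-27a-3p. On the liver-null array the order was the same except that miR-23b-3p came before miR-23a-3p. This is an order of probe signals and not of miRNA amounts, and without replicates it cannot be said which neighbours differ beyond their spread. Together the 5 features held 3.23% of the total intensity of the control array and 4.05% of that of the liver-null array. Their summed intensity went from 932 on the first to 1149 on the second, against array totals of 28849 and 28342. The larger share on the liver-null array therefore did not go with a larger total.

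The size of these differences was read against the rest of the arrays. The brighter features are the 129 of the 258 with a mean log2 level no lower than the median. At 2-fold (a log2 difference of 1), 10.1% of the brighter features were higher and 8.53% lower in the liver-null liver, and 0 of the 5 miRNAs reached it in either direction. At 1.5-fold, 24.0% of the brighter features were higher and 14.7% lower. Both miR-27 paralogs, 2 of the 5 miRNAs, were at least 1.5-fold higher and 0 were lower. In the brightest quartile, which holds all 5 miRNAs and 65 features, 16.9% were at least 1.5-fold higher and 15.4% lower. At 2-fold 4.62% were higher and 12.3% lower there. With so few miRNAs, 2 of 5 is not read as different from these shares. The miR-27 pair may also not be 2 separate measurements, since how far their probes tell them apart was not tested.

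The median difference of the 5 miRNAs was 0.32, with a range from 0.08 to 0.78. Over all shared features the median was -0.06, over the brighter features 0.08 and over the brightest quartile 0.04. These sets include the 5 miRNAs. Without them the median was 0.08 over the brighter features and -0.05 over the brightest quartile. In the brightest quartile, 5 of the other 64 features had a higher difference than miR-27b-3p and 8 a higher one than miR-27a-3p. For miR-23b-3p this number was 15, for miR-23a-3p 19 and for miR-24-3p 26. These counts, like the next, include the other members of the 5 where they lay higher. Among the brighter features miR-24-3p lay at the middle, with 64 of 128 others above it. Each of the 5 miRNAs thus lay at or above the middle of the brighter features, and each was exceeded by other features of the brightest quartile.

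**Figure D3:**
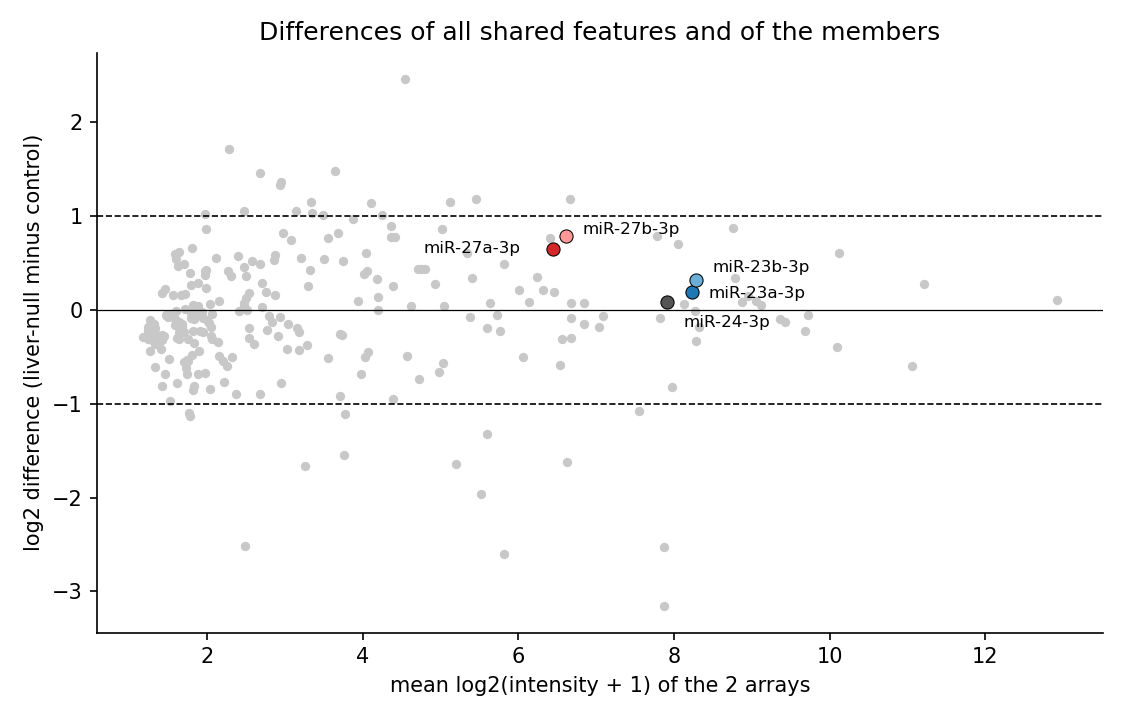
Log2 difference (liver-null minus control) against the mean log2(intensity + 1) of the 2 arrays for the 258 shared features (grey points), with the 5 miRNAs in colour and dashed lines at 2-fold. All 5 lie above 0 and below the upper dashed line, from 0.08 for miR-24-3p to 0.78 for miR-27b-3p.

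Because each cluster is transcribed as a unit, the differences were also set out by cluster and by seed. The miR-23a cluster's own products, miR-23a-3p and miR-27a-3p, had a mean log2 difference of 0.42. Those of the miR-23b cluster, miR-23b-3p and miR-27b-3p, had a mean of 0.55. In both paralog pairs the miR-23b cluster's product had the higher difference, with the gaps of -0.12 and -0.13 given above. With quantile normalization the gaps were -0.18 for miR-23 and -0.28 for miR-27, so their size and likeness depended on the scaling. A constant added to one array cancels in such gaps, so centring on the median or the 75th percentile leaves them as they are.

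As measured, the miR-27 and miR-23 products of the same cluster differed more than paralogs did. Probes that bind both paralogs of a pair would also give small paralog gaps, and this was not tested. The statement does not extend to miR-24-3p, whose signal cannot be assigned to a cluster. The gap between miR-24-3p, at 0.08, and miR-23a-3p, at 0.20, was no larger than the paralog gaps. In the miR-23a cluster the difference of miR-27a-3p exceeded that of miR-23a-3p by 0.45, and in the miR-23b cluster that of miR-27b-3p exceeded that of miR-23b-3p by 0.47. Averaged over both, the miR-27 pair stood 0.46 above the miR-23 pair. This contrast by seed was chosen after the values had been seen. It ranged from 0.37 to 0.50 over all 7 scalings and pseudocounts, and was larger than either paralog gap under each. The miR-27 features were also the dimmer ones, with control intensities of 68.4 and 73.5 against 280 and 277 for the miR-23 pair, and the part of brightness in the contrast was not tested beyond loess centring on the mean level, which gave 0.41.

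**Figure D4:**
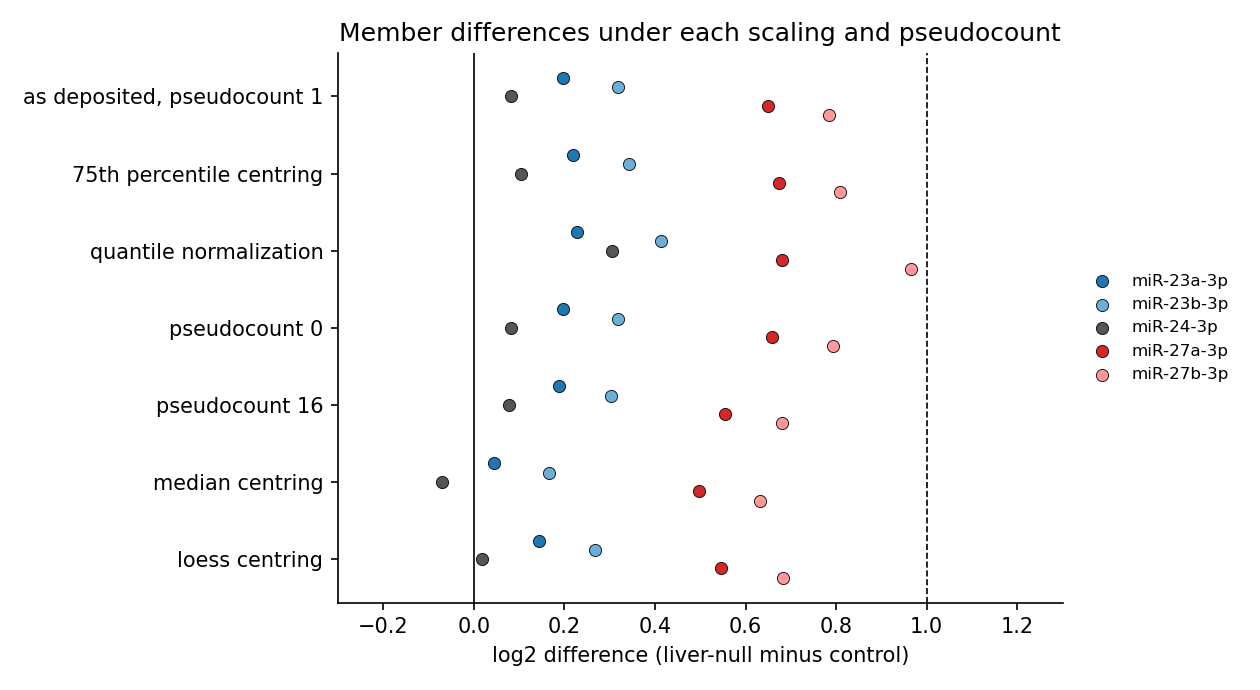
Log2 difference (liver-null minus control, horizontal axis) of the 5 miRNAs under each scaling or pseudocount (vertical axis), 1 point for each miRNA, with a solid line at 0 and a dashed line at 2-fold. The miR-27 points lie to the right of the miR-23 points under every setting shown, none reaches 2-fold, and miR-24-3p falls below 0 with median centring alone.

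The features most like the group were taken as those among the brighter, single-accession features whose difference lay nearest to the group's median, over the 2 arrays. MIMAT0003167 lay nearest, with intensities of 15.3 and 19.4 and a log2 difference of 0.32. MIMAT0000128 followed, with intensities of 392 and 497 and a difference of 0.34. With 2 arrays this likeness describes a single difference. Neither accession is named in the files used here.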

How the data were processed

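Liver total RNA was labelled with the red dye Hy5 in a single channel with an LNA array kit, per the labels' protocols. The deposited values are linear array intensities that the authors had processed. No label or header states the array design, background correction, filter or normalization, or what a missing value means (299 and 340 of 610 features have a value on the control and liver-null arrays). Names of the 5 miRNAs come from a list that pairs their accessions with names. The members, lists and settings were chosen with earlier results of these data known. The planned lists of other arms and cell type markers were not applied, since no other accession is named in the data used here.

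Differences were taken on log2(intensity + 1), which understates the change of dim features. Named features were all 5 miRNAs and the nearest by difference, at most 2 in a direction for unnamed accessions. Alternatives were centring on the median or 75th percentile, quantile normalization, loess centring (span 0.4), pseudocounts of 0 and 16, and other thresholds and background sets. The scaling steps were tried on simulated data with a constant shift between the arrays and little noise. That setting is simpler than the real arrays, so it checks the code and not the choice of scaling. The work used Python 3.11.15 with numpy 2.4.6, pandas 2.3.3, matplotlib 3.10.9 and statsmodels 0.14.6.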

Additional observations from a re-analysis of the deposited data

How the results depend on the processing

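No paired analysis was possible because there is only 1 array for each genotype, which also leaves no replicate to omit. Over 6 alternative scalings and pseudocounts, the difference of miR-27b-3p ran from 0.63 to 0.96, of miR-27a-3p from 0.50 to 0.68, of miR-23b-3p from 0.17 to 0.41, of miR-23a-3p from 0.04 to 0.23 and of miR-24-3p from -0.07 to 0.31. Of 78 recomputed values 1 changed sign, that of miR-24-3p with median centring, which takes 0.15 from every difference by construction. The 78 hold the miRNAs' differences and the median, means and gaps built from them, so they are not 78 separate checks. The count at 2-fold was 0 under all 6 alternatives and became 2 higher at a threshold of 1.5-fold. That count of 2 was 1 (miR-27b-3p) with median centring, loess centring or a pseudocount of 16, a recount chosen after seeing the data. Under these settings 20.2%, 18.6% and 10.1% of the brighter features were at least 1.5-fold higher, against 24.0% as deposited. The share of features at least 2-fold higher was 10.1% of the brighter, 6.59% of all shared and 4.62% of the brightest quartile. Settings for the clusters' other arms were not run, since those accessions are not named. The number of arrays limits the precision.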
